A study of Mus musculus with 2 samples.

Results

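Genes of the bone morphogenetic protein (BMP) pathway, 9 of the 31053 genes counted, were followed through the cells of the mouse ileal crypt: the ligands Bmp2 and Bmp7, the receptor Bmpr1a, the pseudoreceptor Bambi, the inhibitory Smads Smad6 and Smad7, and the targets Id1, Id2 and Id3. They were chosen by name, each symbol matched 1 gene, and their unique molecular identifiers (UMIs, a count of captured RNA molecules) were added up for each of the 12 cell classes the authors named in each of 2 libraries. The study used single-cell RNA-seq (10x Genomics 3′ chemistry) of live Tom+ crypt cells from Atoh1CreER-T2;R26RTom mice, in which a tamoxifen-activated recombinase driven from Atoh1, a gene of the secretory lineage, switches on a lasting red reporter. All cells came from 1 wild-type group, given 2 doses of 1 mg/mL tamoxifen 24 h apart and harvested 12 h later, so every comparison here lies between classes of cells within the same libraries. Only cells carrying the reporter were sorted, and 10.4% and 27.8% of the listed cells of replicates 1 and 2 are in the class ISC. No label says whether replicates 1 and 2 came from separate animals, so the spread between them may be technical.

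BMP ligands bind paired type I and type II receptors on the cell surface, of which Bmpr1a is the main type I receptor of the gut epithelium, and the receptors phosphorylate Smad proteins that enter the nucleus with Smad4. The Id genes are direct targets; their products bind E proteins, partners of basic helix-loop-helix factors such as Atoh1, and keep them off DNA. Bambi resembles a type I receptor without the kinase, and Smad6 and Smad7 block the active receptor, so both act as feedback inhibitors. In the gut BMP signalling is known to be low at the crypt base and high towards the villus, with antagonists secreted by cells beneath the crypt.

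Replicate 1 held 5305 listed cells with a median of 5706 UMIs, and replicate 2 held 6257 cells with a median of 3503. The class sums ranged from 129631 UMIs (EC, replicate 1, 42 cells) to 13770059 (GOBLET-PRE, replicate 1, 2318 cells). The 2 GOBLET sums were made of 42 and 84 cells. Marker lists were read against the class names. The lists for stem cells (ISC), goblet, Paneth and tuft cells, absorptive cells (ENTERO-PRO), serotonin-making endocrine cells (EC) and other endocrine cells (NON-EC) were each most abundant in that class, and the general endocrine list was higher in EC, NON-EC and EEC-PRE than in any other class. The SEC-PRO list (Atoh1, Dll1, Spdef, Dll4) summed to 443 and 419 CPM (a gene's UMIs scaled to a common total) in SEC-PRO and to more, 556 and 508, in GP. Immune, mesenchymal, endothelial and glial lists were each below 50 CPM in every sum, except that the mesenchymal list reached 1065 and 729 in EC and 229 and 76.1 in NON-EC, where Vim was its only gene with UMIs. Cells with very high UMIs may include doublets. Scrublet marked 2 of the listed cells, and whether it missed doublets was not tested. Both libraries hold the same barcode sequence for 12 cells.

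Levels are given on up to 2 scales. Scaled CPM divides by a class sum's UMI total times a TMM factor from abundant genes, and unscaled CPM by the total alone. The factor was 0.230 and 0.256 in PANETH, whose UMIs are mostly of a few secreted products, 0.657 and 0.696 in GOBLET, 0.850 and 0.874 in PANETH-PRE, and above 1 elsewhere. Levels are therefore given on both scales for PANETH, and a value without a scale is scaled CPM. Differences are log2 values of edgeR's quasi-likelihood fit over all 24 sums, with their standard error (SE) and a p-value adjusted over the 10994 genes tested (Benjamini-Hochberg), and a gene is said to rise, fall or change only where that p is under 0.05. The authors' classes rest on the expression of the same cells, so these p-values describe the classes and are not independent evidence. RNA free in the droplet fluid adds UMIs to every cell. In barcodes with at most 50 UMIs the members had, in replicates 1 and 2, 70.3 and 65.2 unscaled CPM of Id1, 27.3 and 31.7 of Id2, 141 and 100 of Id3, 13.2 and 6.86 of Bmp2, 9.10 and 10.3 of Bmp7, 43.0 and 40.3 of Bmpr1a, 19.9 and 22.3 of Smad7, 3.31 and 3.43 of Bambi, and 0 and 0.857 of Smad6.

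Of the 9 members, 8 passed the filter on low counts, and Smad6 did not. These 8 all varied over the 12 classes by edgeR's F test, as did 85.4% of all genes tested, so that count says little by itself. Of the 66 pairs of classes, Id3 differed in 51, Bmp2 in 40, Bambi in 35, Bmpr1a in 34, Id1 and Bmp7 in 32 each, Id2 in 31 and Smad7 in 24, beside 16 for the median gene. The members were chosen with earlier results of these data known, so these counts only describe them.

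Short stretches around motifs are shown for the members whose promoter is in the RefSeq table used (GRCm38.p6; 250 bases before to 50 after the start), because the pathway is read out at such sites: GTCTAGAC, the palindrome that Smad proteins bind, GGCGCC, a GC-rich site of BMP-activated Smads, and CANNTG, the E box that E proteins and Atoh1 bind and that Id proteins leave empty. The 3 motifs are each their own reverse complement, so both strands were searched at once. The table held 4 members (Id2, Id3, Smad6 and Bmpr1a). The sites lie at chr9:64022045-64022074 and chr9:64022036-64022063 for Smad6, chr12:25096307-25096334 and chr12:25096272-25096299 for Id2, and chr14:34502728-34502755 for Bmpr1a, all on the minus strand, and capitals mark the motif:
Smad6 Smad palindrome: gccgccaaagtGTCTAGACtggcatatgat
Smad6 E box: gtctagactggCATATGatgggaggcag
Id2 GC-rich site: caggccccctgGGCGCCcagcgcacact
Id2 E box: atttgccacccCAGCTGggctctcgccc
Bmpr1a GC-rich site: gcgcgcgcgccGGCGCCtcttgctcgcc
The palindrome is held by 0.213% of the 32851 RefSeq promoters of that length, GGCGCC by 11.9% and CANNTG by 72.3%. A match is a run of letters, not a shown binding site. None of the 3 motifs was in the Id3 window (chr4:136143572-136143871), which covers only that stretch. The gene positions printed below come from another annotation (GENCODE M21). By them the windows of Id2, Id3 and Bmpr1a lie wholly inside the gene, so those starts are not the outermost ones.

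Bmp2 (chr2:133552159-133562885, plus strand, GRCm38) was highest along the goblet branch. Its level was 138 and 67.9 in GOBLET (14 and 11 UMIs in replicates 1 and 2), 23.8 and 22.5 in GOBLET-PRE (363 and 125 UMIs), 9.36 and 6.44 in GP, 9.46 and 5.86 in SEC-PRO and, lowest of these, 3.04 and 2.68 in ISC. Both libraries put GOBLET first and GOBLET-PRE second, with no overlap between those 2 classes. Bmp2 rose in SEC-PRO against ISC (log2 difference 1.38, SE 0.31, adjusted p = 0.000176), differed by 0.04 (SE 0.28) from SEC-PRO to GP, rose in GOBLET-PRE against GP (1.51, SE 0.21, adjusted p = 1.47e-07) and rose again in GOBLET against GOBLET-PRE (2.11, SE 0.39, adjusted p = 1.62e-05). The last difference was 2.50 in replicate 1 and 1.56 in replicate 2. Among cells thinned to 2000 UMIs, 19.5% and 9.21% of GOBLET cells had a Bmp2 UMI, against 4.35% and 4.73% in GOBLET-PRE and 0.388% and 0.772% in ISC. The unthinned shares were 26.2% and 11.9%, 13.2% and 8.06%, and, in ISC, 12 of 553 and 26 of 1739 cells.

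PANETH followed GOBLET-PRE in Bmp2 at 20.0 and 14.4, a place it held by the scaling only, since its unscaled values were 4.60 and 3.69. Endocrine classes had almost no Bmp2. EEC-PRE and NON-EC had 0 UMIs of 413094 and 700404, which allows up to 7.26 and 4.28 unscaled CPM, and EC had 1 UMI in its 2 libraries together. The fall from SEC-PRO to EEC-PRE passed the test (adjusted p = 0.0393), but its size cannot be given, since the limit of 5.80 scaled CPM lies close to the SEC-PRO mean of 7.66 ± 2.54 (SD, n = 2). It was lost in 5 of the 8 other settings (adjusted p from 0.0585 to 0.182).

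Bmp7 (chr2:172868012-172940321, minus strand) was highest in PANETH-PRE and PANETH on the scaled level, and PANETH did not hold that place unscaled. It was at 33.1 and 37.4 in PANETH-PRE (48 and 52 UMIs), 46.4 and 47.7 in PANETH (51 and 63 UMIs), 16.2 and 11.7 in SEC-PRO, 5.32 and 8.77 in ISC, 2.49 and 1.92 in TUFT and 1.41 and 2.20 in ENTERO-PRO. On this scale PANETH-PRE and PANETH lay above every other sum in both libraries. Bmp7 rose in SEC-PRO against ISC (0.90, SE 0.23, adjusted p = 0.000889), by 1.48 in replicate 1 and 0.39 in replicate 2, and rose further in PANETH-PRE against SEC-PRO (1.30, SE 0.23, adjusted p = 3.98e-06). From PANETH-PRE to PANETH the difference was 0.42 (SE 0.23, adjusted p = 0.325). On the unscaled level that last direction turned, from 28.2 and 32.6 in PANETH-PRE to 10.7 and 12.2 in PANETH, and PANETH then lay near the free RNA and below SEC-PRO (20.8 and 14.9), GP (15.9 and 17.3) and GOBLET-PRE (13.1 and 13.1). EC replicate 2, with 8 UMIs, was at 37.4 unscaled, above PANETH-PRE. In cells thinned to 2000 UMIs a Bmp7 UMI was found in 8.41% and 6.33% of PANETH-PRE, 3.69% and 2.84% of PANETH and 4.76% and 2.89% of SEC-PRO cells, and unthinned in 19.9% and 15.2%, 19.7% and 14.3%, and 9.97% and 4.99%. Bmp7 fell in ENTERO-PRO against ISC (-2.01, SE 0.71, adjusted p = 0.0188) and in TUFT against SEC-PRO (-2.62, SE 0.66, adjusted p = 0.00110); each of those lower classes rested on 3 UMIs in all. No 2 classes next to each other in the order of Bmp7 levels differed by the test.

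The other ligands of the family were sparse. Of 11 ligands in the fixed pathway list, 7 passed the filter, and all 7 varied among the classes, as did 85.4% of all genes tested. Bmp4, made mainly by mesenchyme in the gut, had 5 UMIs in all listed cells. Bmp3, an atypical ligand that opposes BMP signalling, had the largest fall of the pathway list from ISC to SEC-PRO (-2.62, SE 0.44, adjusted p = 1.17e-06), with 51 and 64 UMIs in ISC and 5 and 8 in SEC-PRO. Bmp8a had the largest rise in ENTERO-PRO against ISC (3.65, SE 0.75, adjusted p = 4.61e-05), on 6 UMIs per library. Gdf11, a ligand of the activin type that the list holds with the BMPs, rose most in EEC-PRE against SEC-PRO, from 1 UMI in all to 7 and 4, and Gdf15, a stress-induced relative, rose most in PANETH against PANETH-PRE, from 1 UMI in all to 13 and 6. Of 13 secreted inhibitors, 2 passed the filter (Twsg1 and Fst). Nog, Chrdl1, Chrdl2, Bmper and Sostdc1 had 0 UMIs, and Grem1 had 1.

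**Figure D1:**
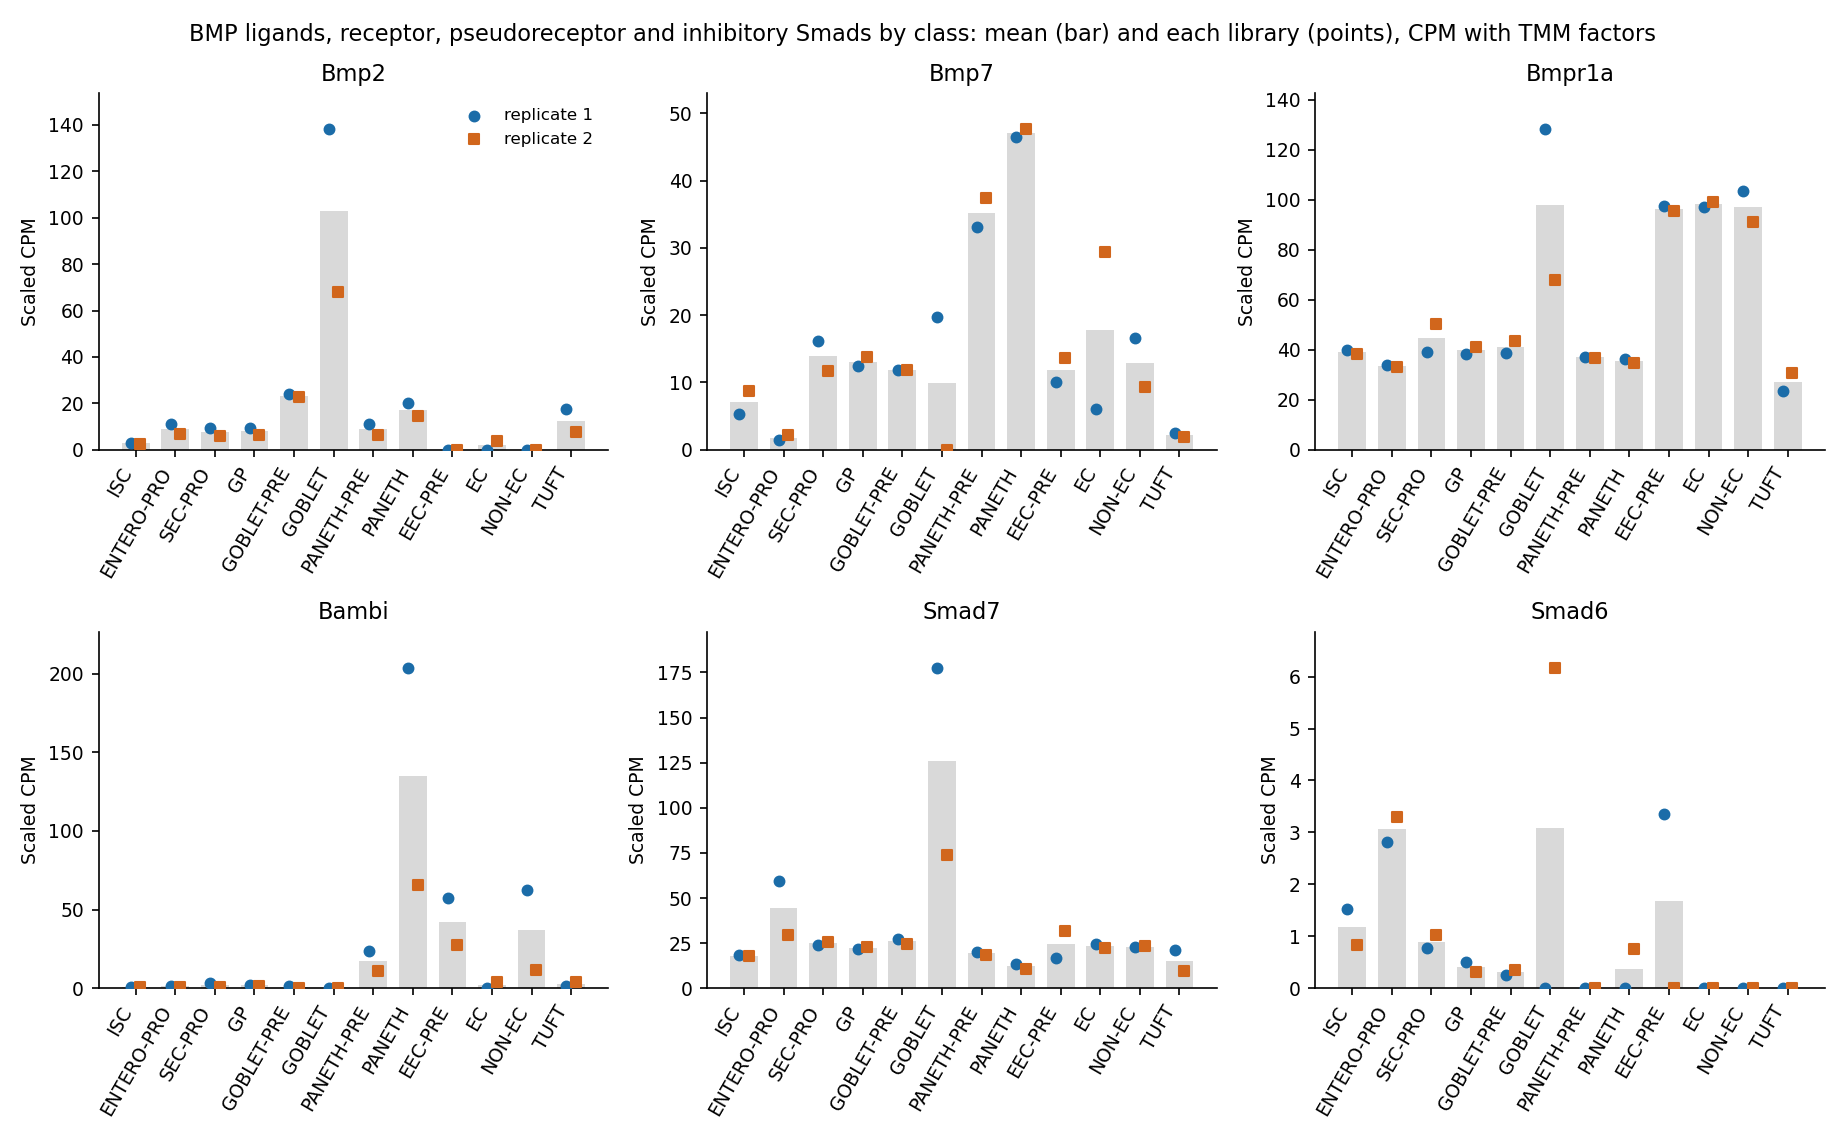
Scaled CPM (linear axis from 0, a separate range in each panel) of Bmp2, Bmp7, Bmpr1a, Bambi, Smad7 and Smad6 in the 12 classes; bars are the mean of the 2 libraries and points are each library. Bmp2 and Smad7 peak in GOBLET, Bmp7 in PANETH-PRE and PANETH (PANETH not on unscaled values), and Bambi in PANETH, EEC-PRE and NON-EC. Bmpr1a stands near 97 in the 3 endocrine classes and at a mean of 98.1 in GOBLET, where the libraries differ.

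Bmpr1a (chr14:34410734-34503341, minus strand), the type I receptor, was nearly even among most classes and higher in the endocrine ones and in GOBLET. The 7 classes from SEC-PRO down to ENTERO-PRO had means between 33.4 and 44.6, and TUFT was lowest at 23.6 and 30.6. EEC-PRE had 97.4 and 95.6 (29 and 21 UMIs), EC 97.2 and 99.3, and NON-EC 104 and 91.0, so the 6 endocrine sums lay within 91.0 to 104 and above all sums of those 8 classes. The place of PANETH, at 36.4 and 34.8, rests on the scaling, since its unscaled values were 8.36 and 8.92. It rose in EEC-PRE against SEC-PRO (1.13, SE 0.25, adjusted p = 0.000245), and the later differences were small (0.01 in EC and 0.01 in NON-EC against EEC-PRE). Thinned to 2000 UMIs, 18.5% and 19.6% of EEC-PRE cells had a Bmpr1a UMI, against 9.52% and 13.0% of SEC-PRO cells; unthinned these were 35.1% and 21.9%, and 21.6% and 19.8%. The gene overlaps an opposite-strand model, Gm17110. The strand setting of the count is not given in the sources, and whether reads of Gm17110 entered the Bmpr1a count was not tested.

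GOBLET was split by library in Bmpr1a, with 128 and 67.9 (13 and 11 UMIs). Its mean of 98.1 was at the endocrine level on this scale, while its unscaled values were 84.3 and 47.3. The rise from GOBLET-PRE (1.15, SE 0.34, adjusted p = 0.0137) was 1.71 in replicate 1 and 0.63 in replicate 2, and it was lost with TMM over all genes (0.78, adjusted p = 0.110), with total UMIs (0.45, adjusted p = 0.363) and without the 10% of cells with the most UMIs (0.98, adjusted p = 0.0904). Bmpr1a fell in TUFT against SEC-PRO (-0.73, SE 0.25, adjusted p = 0.0217), a call lost when cells were thinned (-0.36, adjusted p = 0.525).

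Bambi (chr18:3507923-3516404, plus strand), the pseudoreceptor, was restricted to few classes. It reached 204 and 65.8 in PANETH (224 and 87 UMIs), 57.1 and 27.3 in EEC-PRE (17 and 6 UMIs), 62.2 and 11.7 in NON-EC (30 and 5 UMIs) and 23.4 and 10.8 in PANETH-PRE (34 and 15 UMIs). Each of the remaining classes was below 4 in both libraries. Replicate 1 was above replicate 2 in all 4 of the high classes. GOBLET had 0 UMIs of 386876, which allows up to 7.75 unscaled CPM, and EC had 1 UMI.

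Bambi rose in PANETH-PRE against SEC-PRO (3.11, SE 0.40, adjusted p = 6.16e-10), where the value without replicate 2 was 2.57, and rose again in PANETH against PANETH-PRE (2.96, SE 0.23, adjusted p = 1.57e-18), where it was 2.53 without replicate 1. When all cells were thinned to 2000 UMIs the first of these was 2.21 and no longer passed (adjusted p = 0.0746). It rose most in EEC-PRE against SEC-PRO (4.38, SE 0.54, adjusted p = 1.98e-10; 3.83 without replicate 2). In EC against EEC-PRE it fell (-3.97, SE 1.02, adjusted p = 0.00516), on 1 UMI against 23, a ratio of 0.0515 with an exact 95% counting interval of 0.00125 to 0.317. That call was lost without the library term (adjusted p = 0.344), in thinned cells (0.0508) and with DESeq2 (0.0538). The difference of NON-EC from EEC-PRE did not pass the test (-0.16, SE 0.43, adjusted p = 0.891).

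The rank of PANETH in Bambi depended on the scale. On scaled values it lay above EEC-PRE (1.69, SE 0.31, adjusted p = 7.22e-06, where 25.4% of genes were called), whereas in unscaled CPM PANETH was at 46.8 and 16.9, below the 71.9 and 34.0 of EEC-PRE. NON-EC was at 80.7 and 15.2 unscaled, above PANETH in replicate 1 and below it in replicate 2. Against PANETH-PRE, at 19.9 and 9.41 unscaled, PANETH was higher in both libraries on either scale. A Bambi UMI was found in 109 of 218 PANETH cells of replicate 1 and 72 of 392 of replicate 2, at median depths of 23375 and 12874 UMIs per cell. Thinned to 2000 UMIs the shares were 5.99% and 2.33%, against 11.1% and 8.70% in EEC-PRE and 0.388% and 0.129% in ISC.

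**Figure D2:**
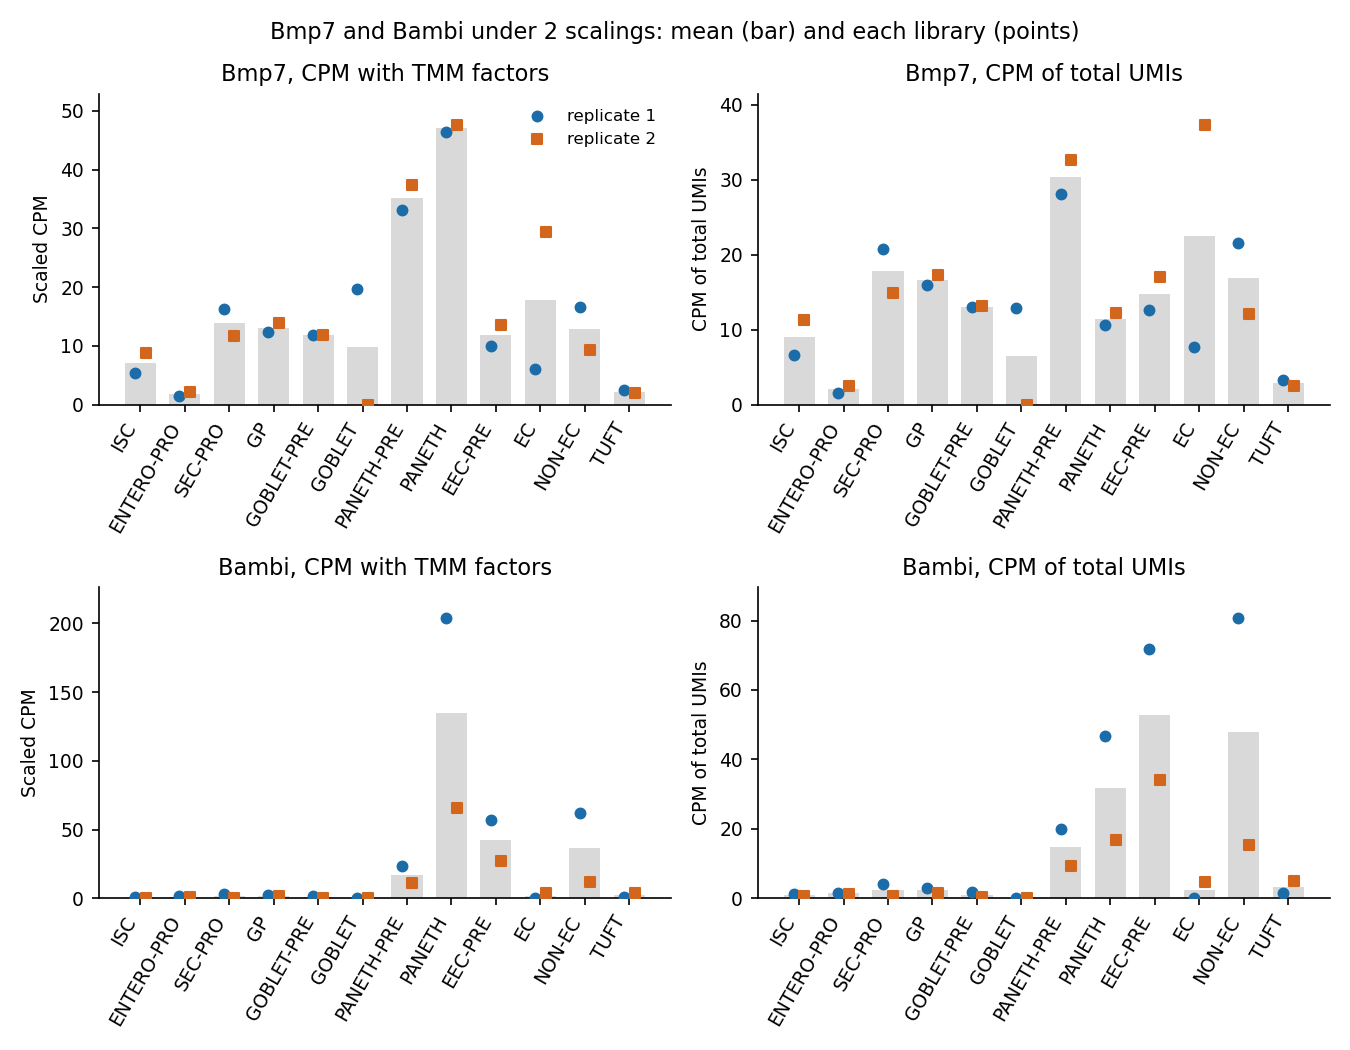
Bmp7 (top) and Bambi (bottom) in the 12 classes as CPM with TMM factors (left) and as CPM of total UMIs (right), on linear axes from 0; bars are means and points the 2 libraries. PANETH leads both genes on the left, while on the right Bmp7 has its highest mean in PANETH-PRE, at 28.2 and 32.6, and Bambi is higher in EEC-PRE than in PANETH.

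Of the 10 receptors and coreceptors of the list, Bmpr1a and Bambi included, 8 were tested and 7 varied among the classes. Of all genes tested 85.4% did so. Rgmb, a coreceptor, was the only gene of the pathway list called lower in GOBLET-PRE against GP (-1.05, SE 0.18, adjusted p = 8.26e-06), from 23.3 ± 3.85 to 10.8 ± 4.32 (SD, n = 2 libraries each). Acvr2b, a type II receptor, had the largest fall in ENTERO-PRO against ISC (-2.85, SE 1.12, adjusted p = 0.0370), on 1 UMI in ENTERO-PRO.

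Smad7 (chr18:75367529-75395935, plus strand) was even in most classes and high in GOBLET. It was at 178 and 74.1 in GOBLET (18 and 12 UMIs) and 59.3 and 29.7 in ENTERO-PRO (42 and 27 UMIs), while the other 10 classes had means from 12.1 in PANETH to 25.9 in GOBLET-PRE. In GOBLET the 2 libraries differed by more than those 10 class means did from each other, yet both lay above every other sum on the scaled level. Unscaled, GOBLET was at 117 and 51.6 and ENTERO-PRO at 66.4 and 34.2, so GOBLET replicate 2 lay below ENTERO-PRO replicate 1. Smad7 rose in ENTERO-PRO against ISC (1.24, SE 0.24, adjusted p = 1.76e-05), by 1.66 in replicate 1 and 0.72 in replicate 2, and in GOBLET against GOBLET-PRE (2.16, SE 0.36, adjusted p = 1.86e-06), by 2.67 and 1.57. The smaller rise from ISC to SEC-PRO (0.44, SE 0.17, adjusted p = 0.0396) was lost with TMM over all genes (0.33, adjusted p = 0.123), without the library term (0.47) and with DESeq2 (0.32, adjusted p = 0.328). PANETH was lowest, at 13.7 and 10.6 scaled and 3.14 and 2.72 unscaled.

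Smad6 (chr9:63953076-64022059, minus strand) was close to the limit of detection and was not tested. It had 19 and 20 UMIs in all listed cells of replicates 1 and 2, of which 6 and 8 lay in ISC and 4 and 4 in SEC-PRO. PANETH-PRE, EC, NON-EC and TUFT had none; for PANETH-PRE, with 3298702 UMIs, that allows up to 0.909 unscaled CPM.

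Among the 14 Smads and regulators of the list, 12 were tested and 9 varied among the classes, where 85.4% of all genes tested did. Tob1, an antiproliferative protein that binds Smads, was the only gene of the list that rose from SEC-PRO to GP (0.42, SE 0.13, adjusted p = 0.0123), from 55.2 ± 8.49 to 73.9 ± 8.49 (SD, n = 2 libraries each).

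Id1 (chr2:152736251-152737410, plus strand) was highest in GOBLET, with 454 and 309 (46 and 50 UMIs), followed by ENTERO-PRO with 150 and 132, ISC with 82.6 and 91.8, and GOBLET-PRE with 64.1 and 81.5. SEC-PRO had 36.9 and 39.2 and GP 28.1 and 38.0. GOBLET stood above all other sums in both libraries, and of the 11 pairs of neighbours in the order only GOBLET and ENTERO-PRO differed by the test (1.38, SE 0.38, adjusted p = 0.0248, where 15.6% of all genes were called). Id1 thus fell from ISC to SEC-PRO (-1.18, SE 0.23, adjusted p = 0.00114), stayed within error in GP (-0.22, SE 0.28), rose in GOBLET-PRE (1.14, SE 0.25, adjusted p = 0.00904) and rose again in GOBLET (2.33, SE 0.38, adjusted p = 0.000636). The rise in GOBLET-PRE did not pass with DESeq2 (1.16, adjusted p = 0.0613) or without the library term (1.14, adjusted p = 0.180). The GOBLET rise was 2.81 in replicate 1 and 1.91 in replicate 2.

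In GOBLET replicate 1, 12 of the 46 Id1 UMIs came from 1 cell; without them the level was 336, still above every sum outside GOBLET. In replicate 2 no GOBLET cell had more than 4 of the 50. After thinning, 41.5% (exact 95% interval 26.3 to 57.9) and 30.3% (20.2 to 41.9) of GOBLET cells had an Id1 UMI, against 11.8% and 14.4% in GOBLET-PRE, 17.3% and 21.0% in ISC, and 0.922% and 1.55% in PANETH. Unthinned, these shares were 47.6% and 36.9%, 25.8% and 21.7%, 34.0% and 35.4%, and 4.59% and 8.93%. Beside the rise in GOBLET, the 7 absorptive cell markers (Fabp1, Fabp2, Apoa1, Apoa4, Alpi, Rbp2, Sis) summed to 1797 and 1306 unscaled CPM there, 1068 and 721 in GOBLET-PRE and 14907 and 6295 in ENTERO-PRO, with Alpi at 0 in GOBLET; their part in the result was not tested.

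Among the remaining classes TUFT had 49.7 and 47.9 of Id1, close together and above SEC-PRO, and EC had 60.8 and 29.4 (10 and 8 UMIs). PANETH-PRE had 17.9 and 31.6. PANETH had 9.10 and 30.3 scaled (2.09 and 7.76 unscaled), EEC-PRE 6.72 and 31.9 (2 and 7 UMIs), and NON-EC 4.14 and 37.3 (2 and 16 UMIs), with replicate 2 above replicate 1 in these 3 classes. None of these neighbours differed by the test.

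Id3 (chr4:136143497-136145755, plus strand) followed the same outline with less spread. It was at 336 and 272 in GOBLET (34 and 44 UMIs), 165 and 133 in ENTERO-PRO, 110 and 117 in GOBLET-PRE (1675 and 650 UMIs), 76.0 and 72.9 in ISC, 63.7 and 69.2 in GP and 52.5 and 57.6 in SEC-PRO. The first 4 classes did not overlap, and each differed from the next: GOBLET from ENTERO-PRO by 1.01 (SE 0.23, adjusted p = 0.000418), ENTERO-PRO from GOBLET-PRE by 0.38 (SE 0.14, adjusted p = 0.0341) and GOBLET-PRE from ISC by 0.61 (SE 0.11, adjusted p = 1.49e-06). In those last comparisons 25.4% and 62.0% of all genes were called. Along the goblet branch Id3 fell from ISC to SEC-PRO (-0.43, SE 0.13, adjusted p = 0.00427), rose in GOBLET-PRE against GP (0.77, SE 0.12, adjusted p = 1.44e-06) and rose in GOBLET against GOBLET-PRE (1.39, SE 0.21, adjusted p = 3.01e-07). The fall was lost in thinned cells (-0.37, adjusted p = 0.0691) and without the library term (-0.44, adjusted p = 0.134). Id3 also rose in ENTERO-PRO against ISC (0.99, SE 0.15, adjusted p = 3.18e-08).

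On the Paneth branch Id3 fell at both steps: in PANETH-PRE, at 35.9 and 32.3, against SEC-PRO (-0.68, SE 0.18, adjusted p = 0.00245), and in PANETH, at 12.7 and 25.0 (2.93 and 6.40 unscaled), against PANETH-PRE (-0.82, SE 0.27, adjusted p = 0.0469). The second fall was -0.42 in thinned cells (adjusted p = 0.842) and did not pass without the library term (adjusted p = 0.162) or without the 10% of cells with the most UMIs (adjusted p = 0.121); the first was -0.56 in thinned cells (adjusted p = 0.137).

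EEC-PRE had the lowest mean Id3 on the scaled level, with 2 and 1 UMIs (6.72 and 4.55), but its difference from PANETH did not pass the test (adjusted p = 0.0786), and unscaled the mean of PANETH was lower. The EEC-PRE level was 0.106 of the SEC-PRO level, with an exact 95% counting interval of 0.0218 to 0.312, and the fall passed the test (adjusted p = 4.78e-06). Both mature endocrine classes were higher: EC had 91.1 and 40.4 (15 and 11 UMIs), and NON-EC 24.9 and 46.7 (12 and 20 UMIs). The EC level was 10.3 times that of EEC-PRE (interval 3.15 to 53.0; adjusted p = 0.000307) and the NON-EC level 6.06 times (1.89 to 30.9; adjusted p = 0.00876). The second call was lost with DESeq2 (adjusted p = 0.0637) and without the 10% of cells with the most UMIs (adjusted p = 0.0917). EEC-PRE had 8.46 and 5.66 unscaled CPM of Id3, below the 141 and 100 of the free RNA.

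Id2 (chr12:25093799-25097140, minus strand) had another order, led by EC at 128 and 91.9 (21 and 25 UMIs). NON-EC had 45.6 and 67.7, TUFT 43.5 and 57.5, GOBLET-PRE 45.5 and 48.8, SEC-PRO 38.4 and 41.5, GP 36.9 and 42.8, GOBLET 39.5 and 37.0, ISC 24.3 and 29.9 and PANETH 4.55 and 12.9 (1.05 and 3.30 unscaled). EC lay above all other sums in both libraries, but its lead over NON-EC did not pass the test (0.89, SE 0.31, adjusted p = 0.182), in a comparison that called 1.52% of all genes. Id2 rose in EC against EEC-PRE (1.83, SE 0.41, adjusted p = 0.000867). After thinning, 23.5% and 25.5% of EC cells had an Id2 UMI, against 0.461% and 0.258% of PANETH cells; the unthinned shares were 28.6% and 24.1%, and 1.83% and 3.83%, at median depths of 2913 and 2164 UMIs in EC and 23375 and 12874 in PANETH. Beside this, EC carried the Vim counts given above, and Col1a1, Col1a2, Col3a1, Pdgfra, Dcn and Acta2, which define fibroblasts and muscle, were at 0 there.

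Unlike Id1 and Id3, Id2 rose from ISC to SEC-PRO (0.55, SE 0.14, adjusted p = 0.00128), though not without the library term (0.54, adjusted p = 0.0660). It showed no call in GOBLET-PRE against GP (0.25) or in GOBLET against GOBLET-PRE (-0.34, SE 0.45). The GOBLET level rests on 4 and 6 UMIs, 3 of the 4 from 1 cell, so a change there could be missed. It fell in PANETH-PRE against SEC-PRO (-0.72, SE 0.20, adjusted p = 0.00395) and in PANETH against PANETH-PRE (-1.43, SE 0.34, adjusted p = 0.00245), and both falls were lost in thinned cells (-0.64, adjusted p = 0.167, and -1.56, adjusted p = 0.399), where fewer UMIs were left.

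**Figure D3:**
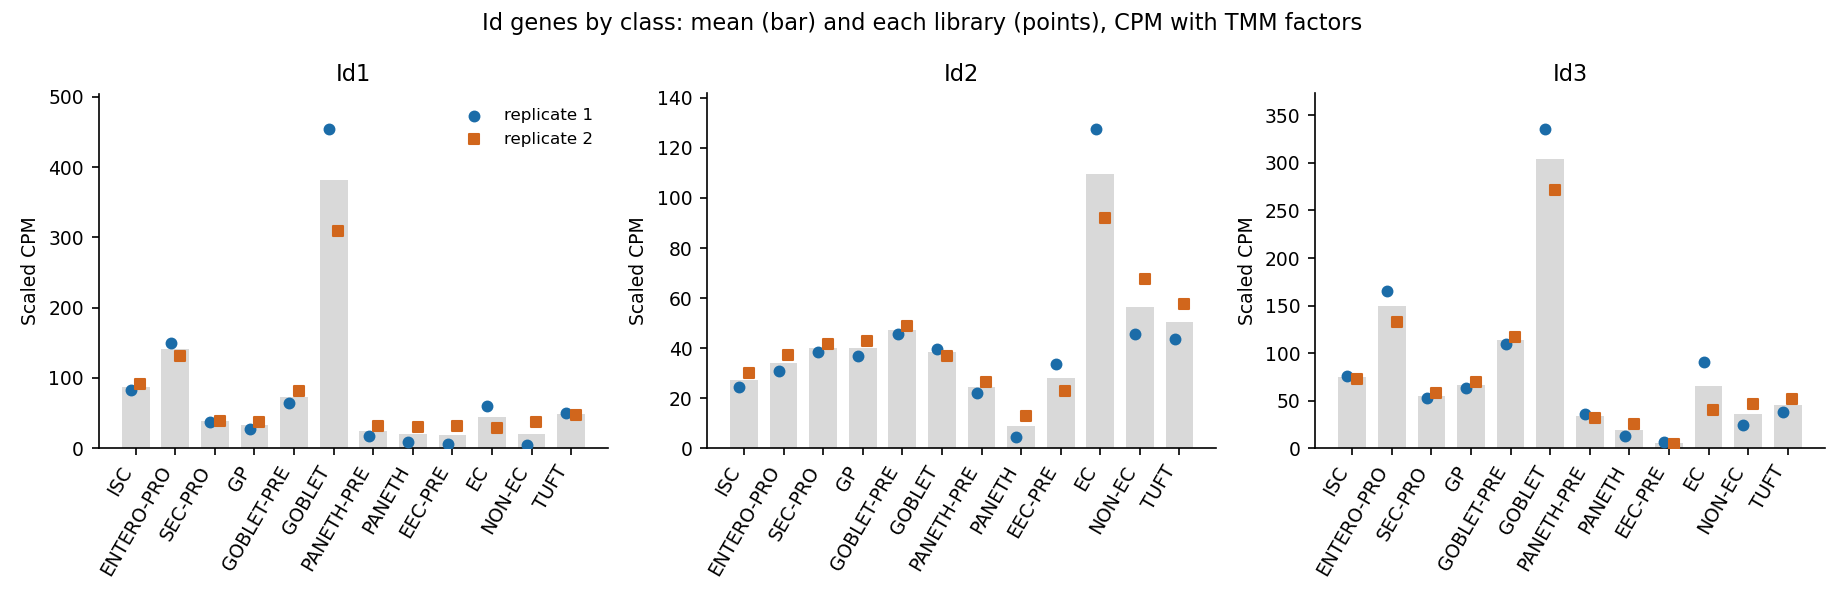
Scaled CPM (linear axis from 0, a separate range in each panel) of Id1, Id2 and Id3 in the 12 classes; bars are the mean of the 2 libraries and points are each library. Id1 and Id3 are highest in GOBLET and next in ENTERO-PRO, and Id2 is highest in EC at 128 and 91.9.

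Id4, a further Id gene outside the 9, did not keep to either order. It had the largest rise of the pathway list in SEC-PRO against ISC (2.49, SE 0.20, adjusted p = 9.89e-19), from 5.60 ± 0.399 to 33.7 ± 5.53 (SD, n = 2 libraries each). It also had the largest fall in PANETH-PRE against SEC-PRO (-1.67, SE 0.27, adjusted p = 2.86e-07), in PANETH against PANETH-PRE (-2.62, SE 0.64, adjusted p = 0.00313) and in TUFT against SEC-PRO (-3.18, SE 0.47, adjusted p = 2.78e-08). Id4 had 1 and 3 UMIs in PANETH and 4 and 1 in TUFT, so the sizes of the last 2 falls are loose. Tcf4, an E protein that Id proteins bind, had the largest rise in TUFT (2.63, SE 0.18, adjusted p = 2.55e-22), at 140 ± 14.3 against 22.8 ± 0.524 in SEC-PRO.

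Within a class, Id1 and Id3 UMIs tended to be found in the same cells in GOBLET-PRE, and not there alone. Among thinned GOBLET-PRE cells with an Id1 UMI, 37.4% and 35.7% also had an Id3 UMI, against 17.7% and 17.4% of those without. In ISC the shares were 25.8% against 14.3% in replicate 1 and 17.5% against 14.3% in replicate 2. SEC-PRO had 17.8% against 12.8% and 21.4% against 11.2%, and GP 33.3% against 13.7% and 15.7% against 14.3%. TUFT, with 12 and 10 cells holding an Id1 UMI, had 16.7% against 2.54% and 30% against 9.09%. PANETH-PRE, with 5 and 15 such cells, was split by library, at 40% against 5.43% and 0% against 5.96%. For Id2 the GOBLET-PRE shares were 17.0% of cells with an Id1 UMI against 7.99% of those without, and 13.5% against 9.15%. GP showed 26.7% against 6.49% and 19.6% against 8.39%, and SEC-PRO 6.67% against 8.61% and 8.93% against 9.12%. In GOBLET, where 41 and 76 cells were left, the libraries went opposite ways for Id3: 17.6% against 41.7% in replicate 1 and 39.1% against 24.5% in replicate 2. Cells share their library, so these shares carry no test.

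Read by comparison, the members' calls were these. From ISC to SEC-PRO, 4 of 8 rose (Bmp2, Bmp7, Id2, Smad7) and 2 fell (Id1, Id3), where 34.5% of all genes were called (19.3% higher and 15.2% lower). Their median was 0.50, beside 0.02 over all genes. ENTERO-PRO against ISC had 3 rises (Bmp2, Smad7, Id3) and 1 fall (Bmp7), where 37.0% of genes were called (18.7% higher and 18.4% lower), with a median of 0.65 beside -0.07. GP against SEC-PRO had 0 calls among the 8 by edgeR, where 17.1% of genes were called (4.38% higher and 12.7% lower), and the members' median was -0.13 beside -0.07. There 1 member, Id3, had an unadjusted p under 0.05 by edgeR's quasi-likelihood test, DESeq2 called 0, and TMM over all genes called 1. GOBLET-PRE against GP had 3 rises (Bmp2, Id1, Id3), where 9.40% of genes were called (4.91% higher and 4.48% lower), with a median of 0.23 beside -0.02. GOBLET against GOBLET-PRE had 5 rises (Id1, Smad7, Bmp2, Id3, Bmpr1a), where 12.1% of genes were called (8.21% higher and 3.86% lower), with a median of 1.27 beside -0.07, or 1.39 without Bambi, which had 0 UMIs in GOBLET.

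On the Paneth branch, PANETH-PRE against SEC-PRO had 2 rises (Bambi, Bmp7) and 2 falls (Id2, Id3), where 27.1% of genes were called (11.9% higher and 15.2% lower), with a median of -0.30 beside -0.06. PANETH against PANETH-PRE had 1 rise (Bambi) and 2 falls (Id2, Id3), where 8.15% were called (5.36% higher and 2.79% lower), with a median of -0.17 beside 0.09. EEC-PRE against SEC-PRO had 2 rises (Bambi, Bmpr1a) and 2 falls (Id3, Bmp2), where 23.3% were called (12.7% higher and 10.6% lower), with a median of -0.37 beside -0.00 with Bmp2 fitted or at its bound. EC against EEC-PRE had 2 rises (Id2, Id3) and 1 fall (Bambi), where 7.51% were called (4.65% higher and 2.87% lower), with a median of 1.01 beside 0.20, or 0.81 without Bmp2. NON-EC against EEC-PRE had 1 rise (Id3), where 9.61% were called (6.06% higher and 3.56% lower), with a median of 0.09 beside 0.18, or 0.17 without Bmp2. TUFT against SEC-PRO had 2 falls (Bmp7, Bmpr1a), where 26.9% were called (13.2% higher and 13.7% lower), with a median of -0.12 beside 0.01. In the SEC-PRO, ENTERO-PRO, PANETH-PRE, EEC-PRE and TUFT comparisons many genes were called, so a few called members are no result about the pathway. Several comparisons share a class, so their values stand side by side and are not added up.

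**Figure D4:**
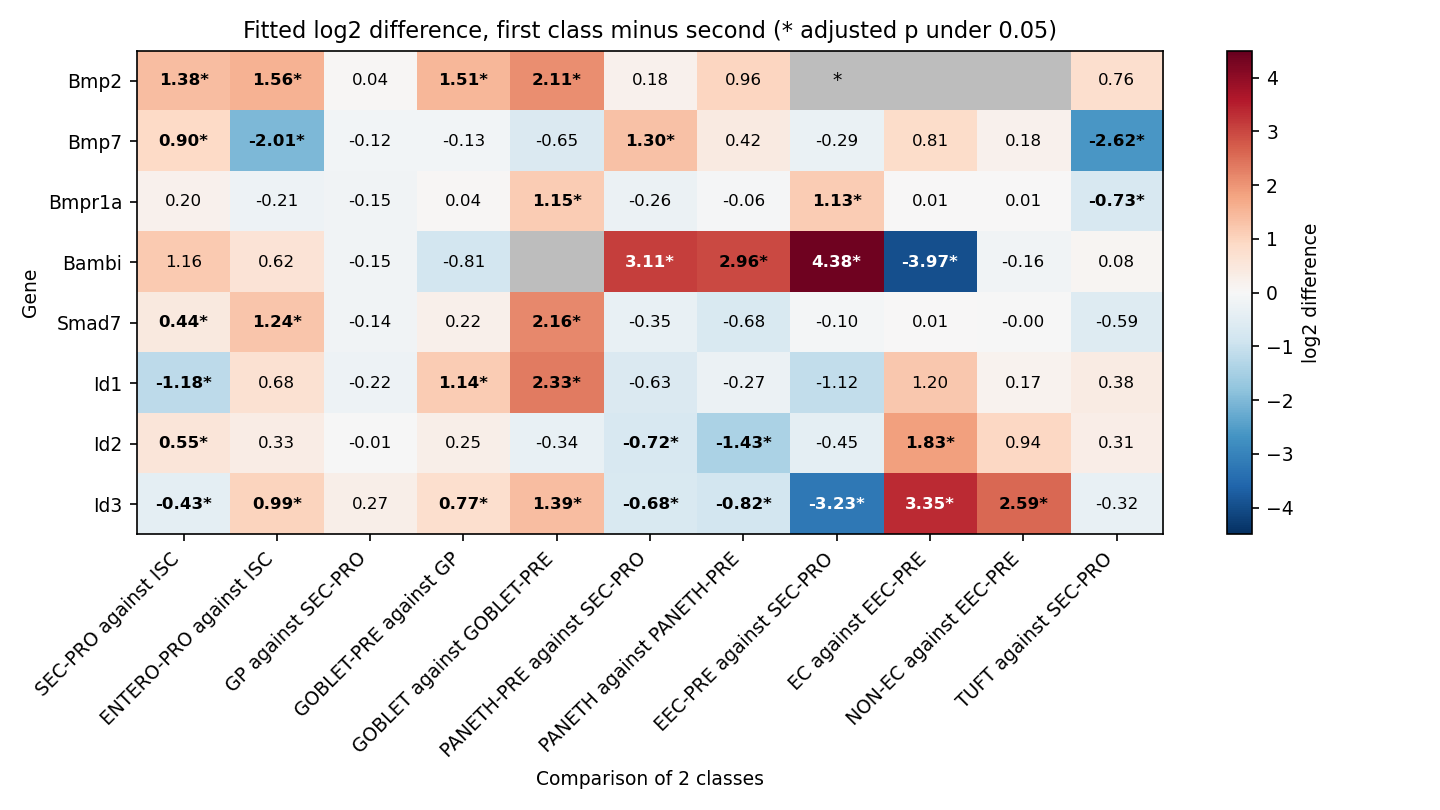
Fitted log2 difference (colour and number, first class minus second) of the 8 tested members in the 11 comparisons; a star and bold type mark an adjusted p under 0.05, and grey cells are comparisons in which a class had 0 UMIs. The GOBLET against GOBLET-PRE column holds 5 rises, from 1.15 in Bmpr1a to 2.33 in Id1, and the Bambi row holds rises of 3.11, 2.96 and 4.38 and a fall of -3.97.

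Of the 69 genes of the wider pathway list, 42 were tested and 38 varied among the classes, where 85.4% of all genes tested did. The calls among the 42 are given with the share of all genes called in brackets. The calls were 11 up and 8 down in SEC-PRO against ISC (34.5%), 7 and 7 in ENTERO-PRO against ISC (37.0%) and 1 and 5 in GP against SEC-PRO (17.1%). GOBLET-PRE against GP had 4 and 1 (9.40%), and GOBLET against GOBLET-PRE had 6 and 0 (12.1%). They were 7 and 4 in PANETH-PRE against SEC-PRO (27.1%), 3 and 4 in PANETH against PANETH-PRE (8.15%) and 10 and 5 in EEC-PRE against SEC-PRO (23.3%). EC against EEC-PRE had 4 and 1 (7.51%), NON-EC against EEC-PRE 4 and 0 (9.61%) and TUFT against SEC-PRO 2 and 5 (26.9%). A count near its share is no result about the pathway. The list's median in GOBLET against GOBLET-PRE was 0.35 beside -0.07 over all genes, and 0.53 when 6 genes at or under 3 UMIs in both classes or without a usable bound were left out. Tgfb1, the ligand of the related TGF-beta branch, had the largest fall from SEC-PRO to GP (-1.52, SE 0.55, adjusted p = 0.0400). Its counts were low and split by library. Replicate 1 went from 25 Tgfb1 UMIs down to 1, while replicate 2 went from 16 to 10. The GP mean of 1.74 therefore had an SD of 2.10 (n = 2 libraries), and the fall lay mainly in replicate 1.

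The genes most like each member over the 24 sums, by Pearson correlation of log2 CPM after each library's mean was removed, were Lgals3 (0.92), Ifngr1 (0.90) and Sptlc2 (0.87) for Id1, and Gsdme (0.88), Hnf4a (0.88) and Snapc5 (0.87) for Id3. For Id2 they were Ywhab (0.83), Zcchc11 (0.78) and Sltm (0.76), for Bmp2 Ptp4a2 (0.93), Rab27b (0.92) and Prr15 (0.91), and for Bmp7 Ceacam10 (0.84), Irak1 (0.84) and Fam213a (0.82). Smad7 was nearest to Tbx3 (0.92), Cdh1 (0.91) and Tapbp (0.91), Bmpr1a to Ppp4r2 (0.90), Fam135a (0.88) and Gnaq (0.87), and Bambi to Gadd45g (0.85), Kif21a (0.84) and BC004004 (0.82). Among the members themselves Id1 and Id3 were closest (0.84), and Bambi ran opposite to Id3 (-0.83) and to Id1 (-0.81). The sums share 2 libraries, the classes and their depth, so these values only describe; in thinned cells 6 of the 24 nearest genes were again among the nearest 3 of their member.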

How the data were processed

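Ileal crypt cells of 1 group of mice gave 2 libraries. Reads were processed with Cell Ranger 3.0.2 and STAR on mm10, per the submitters' processing notes. Per the file headers, each deposited matrix gives unnormalised UMI counts for every gene in every barcode. A table the authors deposited lists the cells kept, each with a class, UMI and gene counts and the percent of UMIs that are mitochondrial; how classes were assigned is not given in the sources. The matrices were matched to the table's library names by label and checked with the UMI totals, equal in 77.6% and 73.9% of cells.

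The members and lists were chosen with earlier results of these data known. UMIs of listed cells (32656481 and 27014983) were summed per class and library into 24 sums and analysed in R 4.3.3 with edgeR 4.0.16: filterByExpr (10994 genes), TMM factors from genes of average log2 CPM at least 6, and a robust quasi-likelihood fit with class and library terms, 11 residual degrees of freedom (median biological coefficient of variation 0.0641). The library term pairs classes, since all 12 come from each library. P-values were adjusted by Benjamini-Hochberg (threshold 0.05). A prior count of 2 entered the log2 levels used for correlations and for differences in a single library or with 1 library left out. It shrinks those differences where counts are low, so they are not on the same footing as the fitted ones. Besides the 9 members, the pathway genes named are those with the largest called rise and fall of each comparison. Shares of cells have exact Clopper-Pearson 95% intervals, and a count of 0 allows up to 3 counts; both cover counting error only. Shares were also taken with every cell thinned to 2000 UMIs (375 and 901 shallower cells left out). Tested on simulated data over 10994 genes, changes of log2 1 and 2 were recovered in 78% and 97% of genes for SEC-PRO against ISC, 23% and 59% for GOBLET against GOBLET-PRE, and 8% and 34% for EC against EEC-PRE. The simulation gave every gene the same biological variation, and all classes the same composition apart from the changed genes. The real sums differ in both, so these rates may not hold for them. Alternatives were DESeq2 1.42.0, other scalings, no filter, no library term, thinned cells, Scrublet, and each library left out. Gene positions are from GENCODE M21 and promoter sequence from RefSeq (GRCm38.p6).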

Additional observations from a re-analysis of the deposited data

Results flagged for a closer look

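Barcodes with more than 600 genes that the authors' table does not list also carried the members. Over both libraries they held 2458 UMIs of Id1, 1038 of Id2, 2477 of Id3, 254 of Bmp2, 343 of Bmp7, 29 of Smad6, 925 of Smad7, 1297 of Bmpr1a and 92 of Bambi. These UMIs lie outside the comparisons above, in 1120 and 219 barcodes with 3000 or more genes, 1717 and 1050 with at least 7% mitochondrial UMIs, and 20 and 17 within the limits of the listed cells. Id1 was at 94.4 and 102 unscaled CPM in the first kind and 81.0 and 98.3 in the second, beside 56.6 and 71.2 over all listed cells. Bambi was at 3.68 and 3.32, and 3.92 and 1.38, beside 11 and 4.81 over all listed cells.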

How the results depend on the processing

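Of the 35 member differences called, 19 were called the same way in all 8 alternatives with a test, and none reversed in any alternative run. DESeq2 lost 6, thinning 10, leaving out the library term 7, leaving out the 10% of cells with the most UMIs (chosen after seeing the data) 5, TMM over all genes 2, and no filter and total UMIs 1 each; leaving out cells marked by Scrublet lost none. Without the replicate block, SEC-PRO against ISC had 3 called members in place of 6. TMM over all genes gave 1 in GP against SEC-PRO in place of 0. Total UMIs gave 7 in PANETH-PRE against SEC-PRO in place of 4 and 8 in PANETH against PANETH-PRE in place of 3, and thinning gave 1 in each. NON-EC against EEC-PRE had 0 with DESeq2 and 0 without the 10% of cells with the most UMIs, in place of 1, and TUFT against SEC-PRO had 1 in thinned cells in place of 2. The cause was not tested, beyond the fewer UMIs that thinning leaves. With 1 library left out no residual degrees of freedom remained, so only values were computed. Of the 35, 26 moved by less than 1 SD without replicate 1 and 28 without replicate 2. That SD came from the same 2 library values, and each of 2 values always lies within 1 SD of their mean. These counts therefore do not measure how far the differences depend on a library.

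Over all genes, total UMIs moved the median log2 difference to -1.71 in PANETH against PANETH-PRE (9019 genes called, 0.355% of them higher, beside 896 and 65.7%), to -0.62 in PANETH-PRE against SEC-PRO (5832 and 7.15%, beside 2977 and 43.8%), to -0.77 in GOBLET against GOBLET-PRE (2055 and 17.1%, beside 1327 and 68.0%), to -0.21 in GOBLET-PRE against GP (1995 and 12.7%, beside 1033 and 52.3%) and to -0.22 in ENTERO-PRO against ISC (37.6% higher, beside 50.5%). TMM over all genes moved it to -0.44 in GOBLET against GOBLET-PRE (39.1% higher), to -0.08 in SEC-PRO against ISC (42.3%, beside 55.9%), to 0.02 in GP against SEC-PRO (43.9%, beside 25.6%), to 0.02 in GOBLET-PRE against GP (63.6%), to 0.04 in PANETH against PANETH-PRE (55.7%), to -0.13 in EEC-PRE against SEC-PRO (43.4%, beside 54.5%) and to 0.04 in EC against EEC-PRE (45.8%, beside 61.9%). Without the replicate block 1917 genes were called in SEC-PRO against ISC (beside 3790), 859 in GP against SEC-PRO (beside 1883), 116 in GOBLET-PRE against GP (beside 1033), 1784 in PANETH-PRE against SEC-PRO and 283 in PANETH against PANETH-PRE. DESeq2 called 594 in GOBLET-PRE against GP, and of its calls 40.0% were higher in SEC-PRO against ISC, 44.3% in EC against EEC-PRE and 38.8% in NON-EC against EEC-PRE (beside 63.0%). Thinning left 8172 genes to test and called 2404 in SEC-PRO against ISC, 2306 in ENTERO-PRO against ISC (beside 4073), 1118 in GP, 630 in GOBLET-PRE, 1450 in PANETH-PRE, 320 in PANETH, 1610 in EEC-PRE (beside 2557), 492 in EC (beside 826), 626 in NON-EC (beside 1057) and 1720 in TUFT (beside 2954). The GOBLET, EEC-PRE, EC and NON-EC sums held 129631 to 371769 UMIs each, which limits what their comparisons can show.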
